A study of Homo sapiens with 6 samples.

Results

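The 8 genes described here code for enzymes, a carrier and nuclear receptors of the retinoid pathway: ALDH1A1, ALDH1A3, DHRS3, DHRS9, CRABP2, RARA, RARG and RXRA. They were measured in derivatives of HCA-7, an established human colorectal cancer cell line whose colonies in type 1 collagen are either cystic or spiky. The cystic group was the isolate CC3 and the spiky group the isolate SC1, each called a clone here, with no treatment given in the labels, and total RNA of their collagen cultures at day 5, 10 and 15 was hybridised to an Affymetrix whole-genome array. There was 1 array per clone and day, so the 6 arrays comprised 3 cystic and 3 spiky samples, and colony shape cannot be told apart from clone. The days served as replicates. No label names separate cultures, so p-values measure no more than how these arrays scatter, and that scatter may be technical. In the fits of clone and day it is how far the clone difference varied between days. A clone difference that changes over the culture therefore adds to it. All probe sets naming 1 of these genes alone were taken, 18 of the 54675 on the array. The genes were chosen by their log2 values on these same 6 arrays, with results for clone and day known, so their levels and differences are given as a description. A probe set with a mean under log2 5 over the 6 arrays was treated as close to background, which left 7 of the 8 genes, with 12 of the 18 probe sets, above that level. Nearest to the limit lay RARA probe set 203750_s_at, with a mean of 5.57, on the upper side and RARG probe set 217178_at, with a mean of 4.89, on the lower side.

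Retinol, vitamin A alcohol, is oxidised to retinal and then irreversibly to retinoic acid, which enters the nucleus with a binding protein and is bound by heterodimers of a retinoic acid receptor (RAR) and a retinoid X receptor (RXR) on DNA. These dimers recognise pairs of a short half-site and keep many target genes repressed until the ligand is bound. In intestinal epithelium the pathway is known for its part in differentiation and in the imprinting of mucosal immune cells, and aldehyde dehydrogenase activity is widely used to mark stem-like cells of the colon and of colorectal cancer.

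Promoter windows are shown for the genes whose levels moved most between clones or over the culture. RefSeq start sites (GRCh38.p14) gave 16 windows for the 8 genes, each from 250 bases before to 50 after a start. They were searched on both strands for the receptor half-site AGGTCA with its form AGTTCA, or GGGTCA with its form GGTTCA, which are counted together and can share end letters. At least 1 half-site stood in 6 of the 16 windows, and in 38.6% of all 35116 RefSeq windows. The windows with a half-site belonged to DHRS3 and CRABP2, but also to RARA and RXRA, which were not called, and to DHRS9, close to background. No window of the 8 genes held 2 half-sites as a direct repeat with a spacer of 1, 2 or 5 bases. Such arrangements were found in 0.131%, 0.0399% and 0.0883% of all windows. DHRS3 and CRABP2 were the genes of the group called as higher at day 15 than at day 5, and their windows with a half-site are given 5′ to 3′ on the gene's strand with the half-site in capitals.
DHRS3, chr1:12616740-12617039, minus strand: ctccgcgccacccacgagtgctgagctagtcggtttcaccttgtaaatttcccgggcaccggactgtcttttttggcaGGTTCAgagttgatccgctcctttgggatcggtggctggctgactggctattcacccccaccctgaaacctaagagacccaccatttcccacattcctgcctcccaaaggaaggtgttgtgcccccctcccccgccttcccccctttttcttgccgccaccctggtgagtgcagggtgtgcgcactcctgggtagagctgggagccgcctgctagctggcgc
DHRS3, chr1:12596564-12596863, minus strand: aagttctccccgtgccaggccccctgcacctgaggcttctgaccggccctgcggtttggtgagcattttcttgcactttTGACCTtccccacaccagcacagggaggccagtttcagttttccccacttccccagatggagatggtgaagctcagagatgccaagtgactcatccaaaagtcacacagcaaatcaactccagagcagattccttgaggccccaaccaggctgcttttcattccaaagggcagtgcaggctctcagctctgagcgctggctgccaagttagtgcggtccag
CRABP2, chr1:156705735-156706034, minus strand: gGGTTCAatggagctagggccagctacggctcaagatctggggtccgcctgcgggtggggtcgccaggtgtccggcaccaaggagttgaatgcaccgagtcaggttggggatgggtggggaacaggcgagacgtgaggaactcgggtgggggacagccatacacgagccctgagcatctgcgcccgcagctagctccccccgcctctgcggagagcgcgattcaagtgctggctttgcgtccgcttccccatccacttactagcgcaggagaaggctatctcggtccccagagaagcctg
In the first DHRS3 window GGTTCA began 172 bases before the start, in the second AGGTCA, read on the opposite strand, began 171 bases before it, and in CRABP2 GGTTCA began 249 bases before the start. One more DHRS3 window, at chr1:12618161-12618460, held none.

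The windows of both retinal dehydrogenase genes held no half-site and differed in base composition. The ALDH1A1 window was 40.3% G and C and that of ALDH1A3 81.7%, against a median of 58.7% over all windows. Both are shown because these paralogous genes differed in how they behaved between the clones; capitals mark the letters CCAAT on either strand, a promoter element found in 34.6% of all windows. It began 74 bases before the ALDH1A1 start and 71 bases before that of ALDH1A3.
ALDH1A1, chr9:72953004-72953303, minus strand: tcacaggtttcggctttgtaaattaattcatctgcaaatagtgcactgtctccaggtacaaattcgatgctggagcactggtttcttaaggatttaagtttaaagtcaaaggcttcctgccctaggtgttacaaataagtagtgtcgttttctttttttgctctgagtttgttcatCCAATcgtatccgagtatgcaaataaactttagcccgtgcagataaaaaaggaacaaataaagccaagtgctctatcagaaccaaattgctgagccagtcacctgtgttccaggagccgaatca
ALDH1A3, chr15:100879581-100879880, plus strand: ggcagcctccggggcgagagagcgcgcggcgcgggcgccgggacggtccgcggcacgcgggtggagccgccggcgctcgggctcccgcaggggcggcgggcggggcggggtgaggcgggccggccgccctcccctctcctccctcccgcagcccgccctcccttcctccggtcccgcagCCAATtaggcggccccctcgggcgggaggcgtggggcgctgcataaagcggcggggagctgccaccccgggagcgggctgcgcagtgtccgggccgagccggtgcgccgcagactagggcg

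The array medians ranged from 5.18 to 5.34 (log2), and precision is limited by there being 6 arrays. Of 10 markers of colorectal epithelium 6 were above log2 5, among them EPCAM and CDH1, while CDX1 and CDX2, intestinal transcription factors, and KRT20 and LGALS4, found in differentiated colonic cells, had means of 4.79, 4.80, 2.74 and 2.83. Of 9 fibroblast markers 2 passed that level (COL1A1 and FBLN1), of 8 measured leukocyte markers 3 (CD3D, CSF1R and CORO1A) and of 7 endothelial markers 2 (CLDN5 and ESAM), and the defining genes DCN, PTPRC and KDR had means of 3.34, 2.95 and 2.58. In such bulk samples fewer cells of a type and less RNA per cell cannot be told apart. As a sign of RNA integrity, ACTB signal at the 3′ end exceeded that at the 5′ end by 2.83 on the cystic day 5 array and 3.28 on the day 15 array, by 2.73 and 3.10 on the matching spiky arrays (log2), and for GAPDH by 0.49 to 0.79.

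Spiky colonies were first set against cystic colonies, to see which of these genes differ between the clones. ALDH1A1, which oxidises retinal to retinoic acid, was 4.31-fold higher in spiky colonies and DHRS3, which returns retinal to retinol, was 1.78-fold higher. These were 2 of the 7 tested genes called by limma, both higher; over all 12317 tested genes 11.4% were called, 3.65% as higher and 7.74% as lower. The median difference of the 7 genes was 0.09, and that of all tested genes -0.03 (log2).

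ALDH1A1 stood at 8.03, 7.58 and 7.53 on the cystic arrays at day 5, 10 and 15 and at 9.36, 9.44 and 10.67 on the spiky arrays. The groups did not overlap, and the clone difference was 1.32 at day 5, 1.86 at day 10 and 3.14 at day 15. The means were 7.71 ± 0.28 in cystic and 9.82 ± 0.73 in spiky colonies (log2, SD, n = 3), with a fitted difference of 2.11 (SE 0.28) that ranked 14 among the 12317 tested genes from the highest down. It passed the threshold with any 1 array left out. In this clone fit, leaving out either array of a day takes that day out of the difference. Both arrays of a day thus give the same estimate, here and for the genes below, so such fits are not separate checks. Without the block for culture day ALDH1A1 kept its difference of 2.11 and was not called.

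The genes that lie around ALDH1A1 on chromosome 9 pointed the other way. Of the 20 tested genes nearest to it, 10 on each side, 18 were lower in spiky colonies, 8 of them called, and none was called higher. Their median was -0.44. Over all tested genes 44.9% had a positive difference, 7.74% were called lower and 3.65% higher, with a median of -0.03. The median of the 20 neighbours was -0.39 at day 5, -0.63 at day 10 and -0.41 at day 15. The closest genes, ZFAND5 and ANXA1, were at -0.19 and -0.12, and the highest of the 20 was KLF9, which codes for a Krüppel-like transcription factor, at 0.61 (SE 0.19). The plot of both retinal dehydrogenase genes with their neighbours shows ALDH1A1 alone far above 0.

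**Figure D1:**
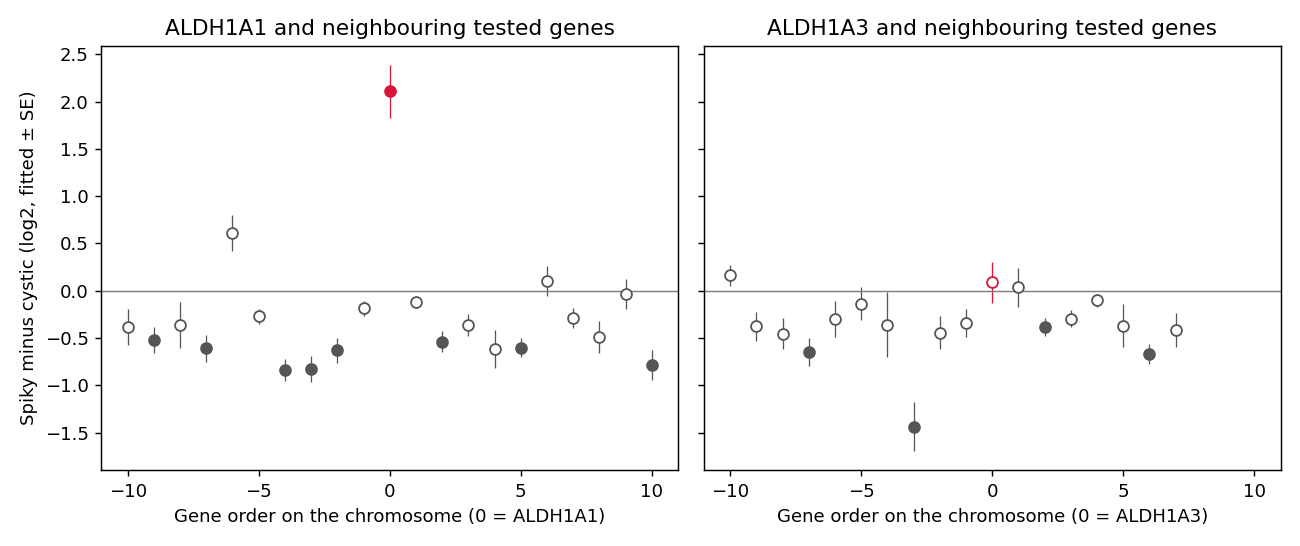
Fitted log2 difference between spiky and cystic colonies (y axis, ± SE, 6 arrays) of ALDH1A1 and ALDH1A3 (red) and of up to 10 tested genes on each side in chromosomal order (x axis; 0 is the named gene); filled points passed limma's threshold. ALDH1A1 sits at 2.11 while 18 of its 20 neighbours lie below 0, and ALDH1A3 sits at 0.09 while 15 of its 17 neighbours lie below 0.

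ALDH1A3, the other retinal dehydrogenase described here, changed its order between the clones over the culture. Its values were 11.76, 11.28 and 10.22 on the cystic against 11.30, 11.05 and 11.17 on the spiky arrays. Spiky colonies were thus lower by 0.46 and 0.23 at day 5 and 10 and higher by 0.95 at day 15. The groups overlapped, with means of 11.09 ± 0.79 and 11.17 ± 0.13 (SD, n = 3) and a fitted difference of 0.09 (SE 0.22). Without the day 15 cystic array, or without the day 15 spiky array, the fitted difference was -0.34 and was called. ALDH1A3 lies near the end of chromosome 15, where 15 of its 17 tested neighbours were lower in spiky colonies, 4 of them called, with a median of -0.37. Over all tested genes 44.9% had a positive difference and 7.74% were called lower.

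DHRS3 is the retinal reductase of the group and is itself induced by retinoic acid. The cystic arrays gave 6.15, 7.54 and 9.19 and the spiky arrays 7.11, 8.58 and 9.68 at day 5, 10 and 15. The groups overlapped across days, but spiky exceeded cystic at each day, by 0.96, 1.05 and 0.49. The fitted difference was 0.83 (SE 0.15). It was not called without either day 5 array (0.77 in both fits) or the day 10 spiky array (0.73), nor without the block for culture day. Without the day 10 cystic array the difference was the same, 0.73, and it was called. Its 20 neighbours on chromosome 1 had a median of -0.02.

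CRABP2 codes for a cytoplasmic carrier that hands retinoic acid to RAR in the nucleus. It was at 7.68, 7.20 and 8.52 in cystic against 6.74, 6.98 and 7.96 in spiky colonies. Spiky colonies had the lower value at each of the 3 days, by 0.94, 0.22 and 0.56, and the fitted difference of -0.57 (SE 0.17) was not called. No alternative setting or left-out array brought it past the threshold.

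DHRS9, an enzyme that can oxidise retinol to retinal, was close to background in all 3 of its probe sets, whose means were 3.71, 3.54 and 3.37. The brightest read 3.64, 3.43 and 3.29 on the cystic against 3.69, 4.50 and 3.68 on the spiky arrays. The spiky day 10 array was the highest in each of the 3 probe sets, at 4.50, 3.98 and 4.27, below log2 5 throughout. No fold was computed for this gene.

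Among the receptors, none of the 3 genes was called between the clones. RARA, the widely expressed retinoic acid receptor, stood at 6.11, 5.85 and 6.32 in cystic against 6.15, 5.96 and 6.30 in spiky colonies by its brightest probe set, 216300_x_at, whose suffix marks probes that may cross-hybridise. The groups overlapped, with a difference of 0.04 (SE 0.17). Its probe sets disagreed, however: 203749_s_at, with almost the same mean (6.11 against 6.12), read 5.80, 5.75 and 5.90 in cystic against 6.22, 6.66 and 6.34 in spiky colonies. These groups did not overlap, and the difference was 0.59 (SE 0.19), which was not called when every probe set was tested on its own. The other RARA probe sets above log2 5, 211605_s_at and 203750_s_at, were at 0.02 and -0.23.

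RARG, the retinoic acid receptor best known from epithelia such as skin, read 6.38, 5.99 and 5.93 in cystic against 6.29, 6.31 and 6.54 in spiky colonies. The groups overlapped, and the difference was 0.28 (SE 0.19); its second probe set, 204189_at, was at -0.16. RXRA, the shared partner of RAR and of several other nuclear receptors, read 9.25, 9.00 and 9.23 in cystic against 8.70, 8.80 and 9.00 in spiky colonies. Spiky was lower on each day, by 0.54, 0.20 and 0.23, with a difference of -0.32 (SE 0.12) that was not called, and its second probe set, 202426_s_at, was at 0.06. Thus RARA, RARG and RXRA each had bright probe sets of opposite sign, as the plot of clone differences by probe set shows.

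**Figure D2:**
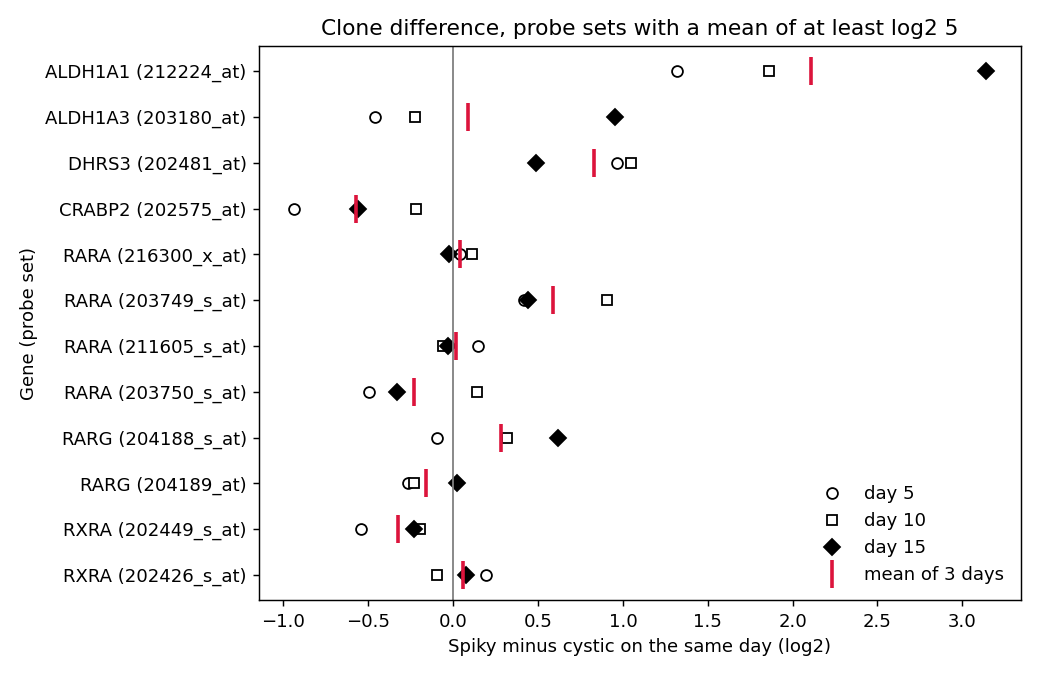
Spiky minus cystic log2 difference on the same day (x axis; circles day 5, squares day 10, filled diamonds day 15, 1 pair of arrays each) and its mean over the 3 days (red bar) for the 12 probe sets with a mean of at least log2 5 (y axis). ALDH1A1 lies at 1.32 to 3.14 on all days, whereas the probe sets of RARA, RARG and RXRA fall on both sides of 0.

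The summed leukocyte markers lay between 7.17 and 7.63 on the spiky and between 7.62 and 8.01 on the cystic arrays (log2 of summed signal), ranges that barely overlap, while the fibroblast sums, 7.89 to 8.5 against 8.0 to 8.84, overlapped widely. CSF1R, the brightest leukocyte marker, read 6.67, 5.76 and 5.87 in cystic against 4.95, 4.82 and 5.74 in spiky colonies. PTPRC read 2.97, 2.82 and 2.68 against 2.77, 3.25 and 3.18, below log2 5 throughout. The part of these markers in the clone differences was not tested.

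Day 15 was then set against day 5, as the mean change of both clones. DHRS3 rose 6.99-fold and CRABP2 2.04-fold, and ALDH1A3 fell 1.79-fold, mostly in cystic colonies (-1.55 against -0.14 in spiky colonies, log2). These were 3 of the 7 tested genes, 2 higher and 1 lower; of all tested genes 32.3% were called, 10.4% as higher and 21.9% as lower. The median of the 7 genes was 0.18 and that of all tested genes -0.11.

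DHRS3 had means of 6.63, 8.06 and 9.43 on successive days (2 arrays each). The days did not overlap: both day 10 values lay above both day 5 values, and both day 15 values above both day 10 values. The rise from day 5 to 15 was 3.04 in cystic and 2.57 in spiky colonies, and the fitted difference was 2.80 (SE 0.19), rank 11 from the highest. From day 5 to day 10 it rose by 1.39 in cystic and 1.47 in spiky colonies, and from day 10 to day 15 by 1.65 and 1.09. The fitted early difference of 1.43 (SE 0.19) ranked 4 of 12317 genes. For this step limma called 0 of the 7 genes and 0.0162% of all tested genes. An unadjusted p under 0.05 was reached by 1 of the 7 and by 13.5% of all tested genes. The call for DHRS3 from day 5 to day 15 held under all 8 alternative settings and without any 1 array.

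CRABP2 moved late. Its means were 7.21, 7.09 and 8.24 at day 5, 10 and 15. From day 10 to day 15 it gained 1.32 in cystic and 0.97 in spiky colonies, a fitted 1.14 (SE 0.21), whereas from day 5 to day 10 it was at -0.47 in cystic and 0.24 in spiky colonies. The day 5 to day 15 difference was 1.03 (SE 0.21), and the groups of 2 did not overlap, with 7.68 and 6.74 at day 5 and 8.52 and 7.96 at day 15. It was not called without the day 5 spiky array (0.76), nor without colony shape in the model. For the late step DHRS3 and CRABP2 were 2 of 7 genes called, both higher, and over all tested genes 22.6% were called, 8.66% as higher.

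Between day 5 and day 15 the ALDH1A3 value went down by 1.55 log2 units in cystic colonies (-1.55) and by far less in spiky colonies (-0.14). The means were 11.53, 11.17 and 10.69 at day 5, 10 and 15, and the fitted difference was -0.84 (SE 0.27). The call was lost without the day 5 cystic array (-0.43), the day 15 cystic array (-0.19) or the day 5 spiky array (-1.25), and under 5 of the 8 alternative settings. ALDH1A1 moved in opposite directions in the clones, -0.51 in cystic against 1.31 in spiky colonies, and its fitted difference of 0.40 (SE 0.34) was not called; without the day 15 cystic array it was 1.18 and was called, and without the day 15 spiky array it was -0.37. The receptors RARA, RARG and RXRA were at 0.18, -0.10 and 0.14, with SE of 0.20, 0.23 and 0.14, and were not called.

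**Figure D3:**
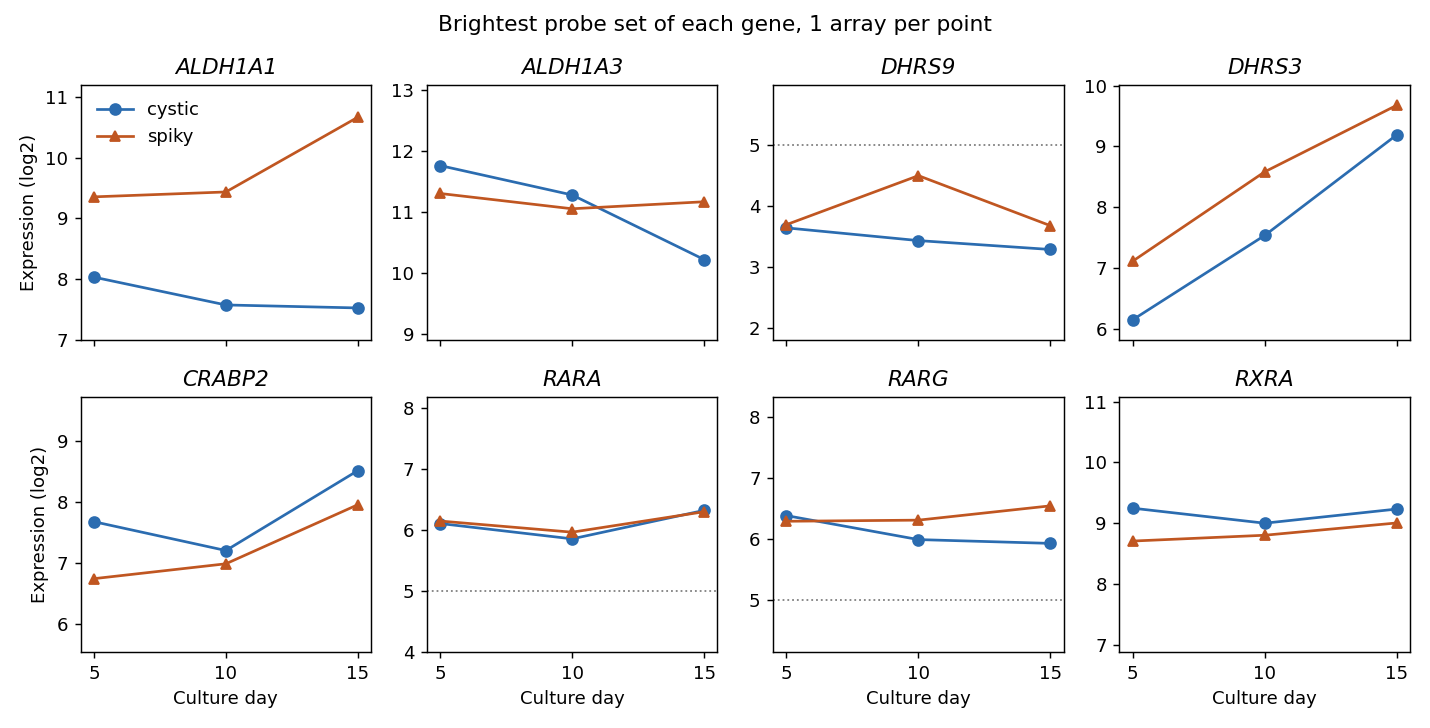
Log2 expression (y axis, each panel spanning the same number of log2 units) of the brightest probe set of the 8 genes against culture day (x axis), with 1 array per point, cystic in blue circles and spiky in orange triangles; the dotted line is log2 5. DHRS3 rises in both clones, ALDH1A1 goes from 9.36 to 10.67 in spiky and from 8.03 to 7.53 in cystic colonies, and ALDH1A3 falls from 11.76 to 10.22 in cystic colonies.

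Over the same days the summed fibroblast markers went from 7.89 and 8.0 at day 5 to 8.5 and 8.84 at day 15, with COL1A1 at 6.50 and 6.41 at day 5 and at 8.12 and 7.54 at day 15, and DCN, LUM and COL3A1 at means of 3.34, 2.37 and 3.24, beside the ACTB values given above. Their part in the changes over the culture was not tested.

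Whether the change over the culture differed between the clones was fitted as a difference in slope per 10 days. It was 1.82 (SE 0.50) for ALDH1A1, 1.41 (SE 0.31) for ALDH1A3, 0.71 (SE 0.47) for RARG, 0.38 (SE 0.71) for CRABP2, 0.31 (SE 0.36) for RXRA, -0.06 (SE 0.53) for RARA and -0.48 (SE 0.41) for DHRS3, positive where spiky colonies rose more or fell less. Limma called 0 of the 7 genes and 0.00% of all tested genes; 2 of the 7, ALDH1A1 and ALDH1A3, and 2.51% of all genes had an unadjusted p under 0.05. ALDH1A1 and ALDH1A3 thus had the highest slope differences of the 7. Another retinal dehydrogenase gene, ALDH1A2, which is not among them, was at -0.42 (SE 0.29). With 1 array left out the slope difference ran from 0.67 to 2.97 for ALDH1A1, from 0.83 to 1.99 for ALDH1A3 and from 0.38 to 1.04 for RARG, lowest without the day 15 spiky array for ALDH1A1, the day 15 cystic array for ALDH1A3 and the day 5 cystic array for RARG. That of DHRS3 ran from -0.85 to -0.10, and those of CRABP2, RXRA and RARA changed sign. By their second probe sets RARG was at 0.29 and RXRA at -0.12. A missed threshold does not show that the clones changed alike.

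The patterns across the 6 arrays differed within the group. Among all tested genes those most like ALDH1A1 were FZD4, a WNT receptor gene, SH3BP4 and SGCE, with Pearson's r of 0.994, 0.993 and 0.991. ALDH1A3 was followed most closely by SCYL2, PDGFA, which codes for a platelet-derived growth factor chain, and GLUD1 (0.995, 0.990 and 0.989). DHRS3 was followed by SMURF1, a ubiquitin ligase gene, PCF11 and ZNF75A (0.997, 0.992 and 0.991), and CRABP2 by NYNRIN, ENO3, the muscle form of the glycolytic enzyme enolase, and GPRIN2 (0.996, 0.991 and 0.990). With 6 arrays such values are common: between 131 and 344 genes exceeded 0.9 for each of the 4. Between members r ran from -0.72 for ALDH1A3 with DHRS3 to 0.83 for CRABP2 with RXRA. These correlations describe 6 arrays that share clones and days.

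Beyond the 8 genes, lists of the pathway by role held 77 further genes, of which 37 were tested, 23 were below log2 5 and 17 were not analysed here. Of the 37, limma called 1 as higher and 8 as lower in spiky colonies, 24.3% against 11.4% of all tested genes, and 7 as higher and 4 as lower at day 15, 29.7% against 32.3%. The counts of single lists below read against the same all-gene shares, 11.4% between the clones (3.65% higher, 7.74% lower) and 32.3% at day 15 (10.4% higher, 21.9% lower). Unlike the 37 genes, the single lists also hold those of the 8 genes that belong to them, which were chosen by their values on these arrays. The lists too were drawn up with earlier results of these data known, so all these shares are a description. The median differences of the 37 genes were 0.01 for the clones and 0.00 for day 15 against day 5.

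In uptake and binding, RBP7, a cellular retinol-binding protein gene, was lower in spiky colonies (log2 difference -0.81, SE 0.19, limma adjusted p = 0.0280) and was 1 of 7 genes called. Its mean was 5.50, with 1 of 6 arrays under log2 5. SCARB1, a lipoprotein receptor that also takes up carotenoids, fell at day 15 (-0.64, adjusted p = 0.0438), while CRABP2 rose. FABP5, which can carry retinoic acid to another receptor, read 12.25, 12.44 and 12.30 in cystic against 12.17, 12.24 and 11.87 in spiky colonies.

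In ester storage and carotene cleavage PNPLA4, a lipase that acts on retinyl esters, fell at day 15 (-0.61, adjusted p = 0.0296), 1 of 5 genes tested. Limma called 0 of the 5 between the clones, and 0 had an unadjusted p under 0.05, against 24.4% of all tested genes. LRAT, which makes retinyl esters, was at -0.32 and the carotene oxygenase BCO2 at 0.18.

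Among retinol-oxidising enzymes SDR16C5, an epidermal retinol dehydrogenase gene, showed the largest clone difference of the further genes. It read 8.90, 9.41 and 8.76 in cystic against 7.85, 7.44 and 7.10 in spiky colonies, without overlap, and was 2.95-fold lower (-1.56, SE 0.18, limma adjusted p = 0.00111). RDH10, the main retinol dehydrogenase of the embryo, read 6.94, 7.38 and 6.63 in cystic against 7.72, 7.56 and 7.10 in spiky colonies. RDH5 rose at day 15 by at least 1.32-fold (limma adjusted p = 0.0410), with 3 of 6 arrays under log2 5, and lost its call under 5 of 7 alternative settings. ADH1A, ADH1B, ADH1C, ADH7, RDH8 and RDH16 were below log2 5, as DHRS9 was.

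Among retinal reductases DHRS3 was the gene called between the clones, 1 of 4 tested beside 11.4% of all tested genes. At day 15, 3 of 4 were called, beside 32.3% of all tested genes: DHRS3 and AKR1C3, an aldo-keto reductase (0.86, adjusted p = 0.0170), rose and RDH13 fell (-0.74, adjusted p = 0.0102). The RDH13 probe sets disagreed, with 2 of 3 others of the same sign, and its call was lost when they were averaged. Among the retinal dehydrogenases ALDH1A2 was also called lower at day 15 by limma (-0.60, SE 0.13, adjusted p = 0.00826). It read 10.05, 9.85 and 9.66 in cystic against 10.18, 9.78 and 9.37 in spiky colonies. ALDH1A2 values went down in both clones, whereas ALDH1A3 changed little in spiky colonies (-0.14). ALDH8A1 was below log2 5 on 4 of 6 arrays.

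The enzymes that break down retinoic acid and are induced by it were close to background. CYP26A1 had a mean of 3.14 and lay between 2.64 and 3.50 on the 6 arrays. CYP26B1 had a mean of 4.55; it read 3.99 and 3.91 at day 5 and 10 and 5.48 at day 15 in cystic colonies, and 4.16, 4.33 and 5.44 in spiky colonies. Both day 15 arrays were the only ones above log2 5.

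Of the other receptors RXRB was called higher in spiky colonies (0.57, SE 0.16, adjusted p = 0.0468) and higher at day 15 (0.71, adjusted p = 0.0203), with 2 of 2 other bright probe sets of the same sign in each comparison. The clone call for RXRB was lost with any 1 array left out (0.48 to 0.72) and under 4 of 8 alternative settings, among them the mean of its probe sets (0.32). RARB, a receptor gene induced by retinoic acid, had a mean of 5.19 and RXRG one of 3.35. Among cofactors NRIP1, a corepressor of nuclear receptors, was lower in spiky colonies (-0.53, adjusted p = 0.00812) and higher at day 15 (0.59, adjusted p = 0.00558). Of 6 RXR partner receptors VDR, the vitamin D receptor, was called lower in spiky colonies (-0.51, limma adjusted p = 0.0148). At day 15 limma called 0 of the 6, and PPARA was at 0.57 and THRA at -0.11. An unadjusted p under 0.05 was reached there by 1 of the 6 and by 43.2% of all tested genes. The other bright probe sets of PPARA were at 0.96 and 1.14, and the mean of its probe sets, 0.89, was called (limma adjusted p = 0.0135); with 1 array left out the brightest ran from 0.23 without the day 5 spiky array to 0.91 without the day 5 cystic array.

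Of 22 genes known as retinoic acid targets 11 were tested, DHRS3 and CRABP2 among them. Both were chosen by their values on these same arrays, so their calls lend no separate weight to the counts and medians that follow. The list itself was drawn up with earlier results of these data known, so its counts are a description. The clone median given next is the value of CRABP2 itself. Between the clones 5 of the 11 were called, 45.5% beside 11.4% of all tested genes: 1 was called higher, DHRS3, where 3.65% of all genes were, and 4 lower, where 7.74% were, with a median of -0.57 against -0.03 over all tested genes. The 4 lower genes were ICAM1, an adhesion molecule for leukocytes (-1.04, SE 0.11, limma adjusted p = 0.000674), TNFAIP2 (-1.07), PLAAT4, a phospholipase gene also known as a retinoic acid receptor responder (-0.82), and RARRES2, which codes for the chemoattractant chemerin (-0.71). RARRES2 lay near the limit, with a mean of 5.38 and 1 of 6 arrays under log2 5. The clone call was lost without either array of day 5 or of day 10 for TNFAIP2 (-1.49 to -0.81 over all left-out arrays) and PLAAT4 (-1.06 to -0.64). As both arrays of a day give 1 estimate, these are not 4 separate checks. The clone call held throughout for ICAM1 and, apart from the fit without culture day, SDR16C5. At day 15, 5 of the 11 were called higher and 0 lower by limma, beside 32.3% of all tested genes, 10.4% as higher and 21.9% as lower, with a median of 0.27 against -0.11. These were DHRS3, CRABP2, TNFAIP2 (1.69), PLAAT4 (0.99) and TGM2, transglutaminase 2, which rose at least 7.84-fold from 4.91 and 5.37 at day 5 to 7.76 and 8.55 at day 15. RARRES2 and, for day 15, PLAAT4 fall outside the rule for named genes, as do FABP5, RDH10, ALDH8A1, CYP26A1, CYP26B1, RARB and RXRG, and were added after their values were seen. The calls for RARRES2 and, at day 15, PLAAT4 were not followed under the alternatives. Of the other calls in these lists, that for SCARB1 was lost in 5 of 6 fits with 1 array left out (-0.77 to -0.51), RBP7 in 4, with any array of day 5 or day 10 (-0.98 to -0.70), and PNPLA4 in 3, both day 5 arrays and the cystic day 15 array (-0.71 to -0.51). RXRB at day 15 lost its call without either day 5 array or the spiky day 15 array (0.57 to 0.85), and RDH5 without either day 15 array or the spiky day 5 array (0.50 to 1.17). AKR1C3 lost it without the spiky day 5 or day 15 array (0.51 to 1.22), NRIP1 and RDH13 at day 15 without either day 5 array, NRIP1 and VDR between the clones without either day 10 array, and ALDH1A2 and TNFAIP2 at day 15 without the spiky day 5 array. Among alternative settings, the fit without the block for culture day and that with one variance prior ended the clone calls for NRIP1, TNFAIP2, PLAAT4 and VDR, and the mean of probe sets ended that for VDR too. RBP7 was not called without the block or without the filter on dim genes. At day 15 culture day alone ended the calls for SCARB1, AKR1C3, NRIP1, PNPLA4, RXRB and TNFAIP2, and for SCARB1 so did the absence of a filter on dim genes and testing each probe set on its own. The direction differed among targets: TNFAIP2, PLAAT4 and CRABP2 had negative clone differences and positive day differences, while DHRS3 was positive in both.

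**Figure D4:**
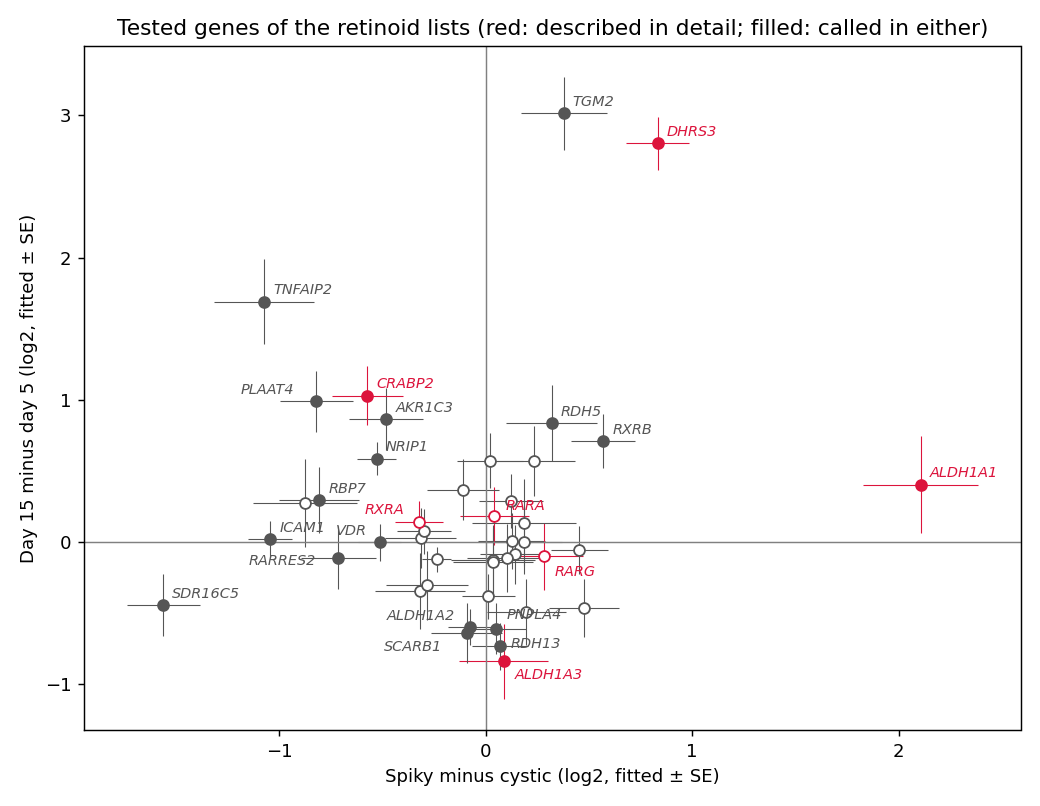
Fitted spiky minus cystic difference (x axis) against fitted day 15 minus day 5 difference (y axis), log2 ± SE over the 6 arrays, for the 44 tested genes of the retinoid lists; red marks the genes described in detail and filled points passed limma's threshold in at least 1 comparison. ALDH1A1 stands apart to the right at 2.11, DHRS3 and TGM2 at the top at 2.80 and 3.02, and SDR16C5 at the left at -1.56.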

How the data were processed

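RNA from collagen cultures of the 2 HCA-7 clones was measured on 6 arrays. The authors deposited log2 expression for each probe set. They used RMA, per the submitters' processing notes, of a version not stated in the sources used here. RMA corrects background, equalises the arrays' distributions and summarises probes, so small differences of dim genes shrink. Of 54675 probe sets 41097 named 1 gene in GEO's platform annotation, 1801 several and 11777 none; 41043 matched RefSeq symbols.

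Each gene took the values of the brightest probe set naming it alone, and 12317 genes with a mean of at least log2 5 were tested with limma 3.58.1 in R 4.3.3 (lmFit, eBayes with an intensity trend, two-sided, Benjamini-Hochberg threshold 0.05). Colony shape was fitted with culture day as a replicate block, days with colony shape as a term, and slope differences with their product. The script was tested on simulated data. Members and lists were chosen with earlier results of these data known. From each list every called gene was named, up to 4 by adjusted p in each comparison, or the 2 with the largest difference where none was called. Closest patterns were the 3 tested genes with the highest correlation, for members ranging over at least log2 1. Same-day arrays were paired because the labels give the shared culture day. Alternatives were other filters, probe-set rules, scalings and variance priors, leaving out the block, and leaving out each array.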

Additional observations from a re-analysis of the deposited data

Results flagged for a closer look

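For 3 genes the values of the clones, by their brightest probe set, moved in opposite directions from day 5 to both later days. For each gene 1 of these moves was close to 0. From day 5 to day 10 ALDH1A1 changed by 0.081 and RARG by 0.019 in spiky colonies. RXRA changed by -0.015 from day 5 to day 15 in cystic colonies. The difference in slope per 10 days, spiky minus cystic, was 1.82 (log2) for ALDH1A1, 0.711 for RARG and 0.313 for RXRA. Limma's test of this difference called none of the 3 after Benjamini-Hochberg adjustment, and of them only ALDH1A1 had an unadjusted p under 0.05. Each clone had 1 array per day, so the direction within a clone has no replicate. With 1 array left out the slope difference ran from 0.67 to 2.97 for ALDH1A1, from 0.38 to 1.04 for RARG and from -0.17 to 0.79 for RXRA. The opposite directions did not hold in the second probe sets of RARG and RXRA. There both clones were below their day 5 value at day 10 and day 15, and the slope differences were 0.29 for RARG and -0.12 for RXRA.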

How the results depend on the processing

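Replicate numbers here are culture days in order. Between the clones, without the replicate block limma called 0 of the 7 member genes and 72 genes in all, against 2 and 1403 with it; with 1 array left out the counts ran from 1 to 3 and from 507 to 2157. Over all genes 2698 probe sets were called when each was tested on its own and 691 genes with one variance prior. Centring arrays on their medians moved the higher share of calls from 32.1% to 44.5%. For day 15 against day 5, culture day alone gave 1 member and 1457 genes, against 3 and 3982; left-out arrays gave 1 to 3 and 761 to 4318, and separate probe sets 8708. The higher share was 32.3%, 44.9% after cyclic loess and 43.8% for probe sets. For day 10 against day 5, 1 member was called with a minimum of log2 6 and 1 with separate probe sets, and 0 to 2 with an array left out; for day 15 against day 10, 0 with culture day alone and 1 to 3 with an array left out. The slope difference gave 0 members in each left-out fit and 0 to 33 genes in all.

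Signs turned as follows, as ranges over left-out arrays. Between clones ALDH1A3 ran from -0.34 to 0.36. From day 5 to 15 ALDH1A1 ran from -0.37 to 1.18, RARG from -0.38 to 0.18, RXRA from -0.022 to 0.31 and THRA from -0.46 to 0.23 (0.036 with probe sets averaged). From day 5 to 10 ALDH1A1 ran from -0.78 to 0.40, ALDH1A3 from -0.78 to 0.043, CRABP2 from -0.39 to 0.16, RARG from -0.47 to 0.093 and RXRA from -0.24 to 0.088. From day 10 to 15 ALDH1A3 ran from -1.12 to 0.17, ALDH1A1 from -0.18 to 1.37 and RARG from -0.17 to 0.34. In slope CRABP2 ran from -1.41 to 2.17, RXRA from -0.17 to 0.79 and RARA from -0.78 to 0.66. The causes were not tested. Of 483 member values under alternatives 433 kept direction and side of the threshold, as did 226 of 304 for pathway genes. These counts include genes called neither before nor after. Of the 8 settings that kept all arrays, ALDH1A1 and DHRS3 held their clone calls under 7 each. At day 15 DHRS3 held its call under 8, CRABP2 under 7 and ALDH1A3 under 3. Values near log2 5 are limited by signal over background.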
